A study of Mus musculus with 64 samples.

Results

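The effect of a high-fat diet (HFD) on the mouse liver was averaged over 2 genotypes, with the WT change and the HuMgat2 change given equal weight. All 16 of the 16 liver libraries entered, 8 on HFD and 8 on chow. They formed 4 groups of 4: WT on chow, WT on HFD, HuMgat2 on chow and HuMgat2 on HFD. HuMgat2 mice carry human MOGAT2 in place of the mouse gene Mogat2, which encodes an enzyme that makes diacylglycerol from monoacylglycerol, and both genotypes had been on their diet for 16 weeks. The HuMgat2 groups carry the human gene on both diets, so the average compares diets and not genotypes. The labels do not say whether each library came from a separate animal, so p-values measure the spread between libraries. The hour of collection and the feeding state are not given either, and their part in the results was not tested.

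In a liver that stores fat, hepatocytes take up and make fatty acids, esterify them to triglyceride and hold it in droplets. Sustained fat loading is known to bring macrophages that clear lipid and stellate cells that lay down collagen. Bile acid export, drug-metabolising cytochromes and the circadian clock of the liver are also known to be sensitive to diet.

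Levels are given as CPM, read counts scaled for library depth by the TMM method. A gene was called, and is said to have risen or fallen, where the adjusted p of the averaged diet effect was below 0.05 in the edgeR quasi-likelihood test over 17318 genes. A called gene was counted as alike in both genotypes where its 2 genotype changes had the same sign and the 95% interval of their difference lay within 1 on the log2 scale, a 2-fold difference. This limit is easier to meet for abundant genes and for small changes. It does not require a called change in each genotype alone. The genes nearest to it were Foxa2 (upper bound 0.998) and Irak4 (lower bound -0.999) inside, and Klf6 (upper bound 1.001) and Nfxl1 (lower bound -1.002) outside.

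Depth was 12.4 to 25.8 M counts per library. WT HFD library 4 stood apart: it had the lowest depth, 0.85% of its counts came from albumin (Alb) against 3.259% to 6.018% elsewhere, and it agreed less with the libraries of its group (median Spearman rho over tested genes 0.954, elsewhere 0.978 to 0.99). Counts that this library moves by over 1.5 times are given with and without it. The 9 hepatocyte markers summed to 75500 to 89600 CPM in WT on chow and 45400 to 65600 CPM in WT on HFD, without overlap, and to 68200 to 95100 against 55900 to 72300 CPM in HuMgat2. Mogat2 itself had 0 to 12 counts per library, too few to test, and human MOGAT2 was not analysed here.

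The averaged diet effect was called for 4134 genes (23.9% of those tested), of which 2307 (13.3%) were higher and 1827 (10.5%) lower on HFD. Without WT HFD library 4, 4748 genes were called, and 3907 of the 4134 were among them. The 2 genotype estimates had the same sign in 3895 of the 4134 genes and opposite signs in 239. Of the called genes, 2211 (12.8% of those tested) were alike in both genotypes, 1023 of them higher (5.91%) and 1188 lower (6.86%). Without WT HFD library 4, 1431 genes were alike and higher and 1456 alike and lower. The genotype difference itself passed the test in 378 of the 4134 called genes. Of these, 40 were alike genes, whose difference was called but bounded below 2-fold, and 1585 called genes were neither alike nor different by the test. Among the alike genes, 406 also passed the test in each genotype alone, 180 higher and 226 lower.

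The alike genes were the more abundant and the less changed part of the response, which the limit for alike favours by its form. Alike genes that rose had a median level of 14.2 CPM and a median log2 change of 0.40. The other genes that rose had a median of 2.86 CPM and a median change of 0.92. Those that fell alike had a median of 31.2 CPM and a change of -0.33, against 5.07 CPM and -0.80 for the others that fell and 6.79 CPM for all tested genes. Of 824 called genes with at least a 2-fold change, 42 were alike. The ranges of the 2 diets did not overlap in 488 genes (2.82% of those tested), with all 8 HFD libraries above in 217 and below in 271, and 296 of these were alike.

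**Figure D1:**
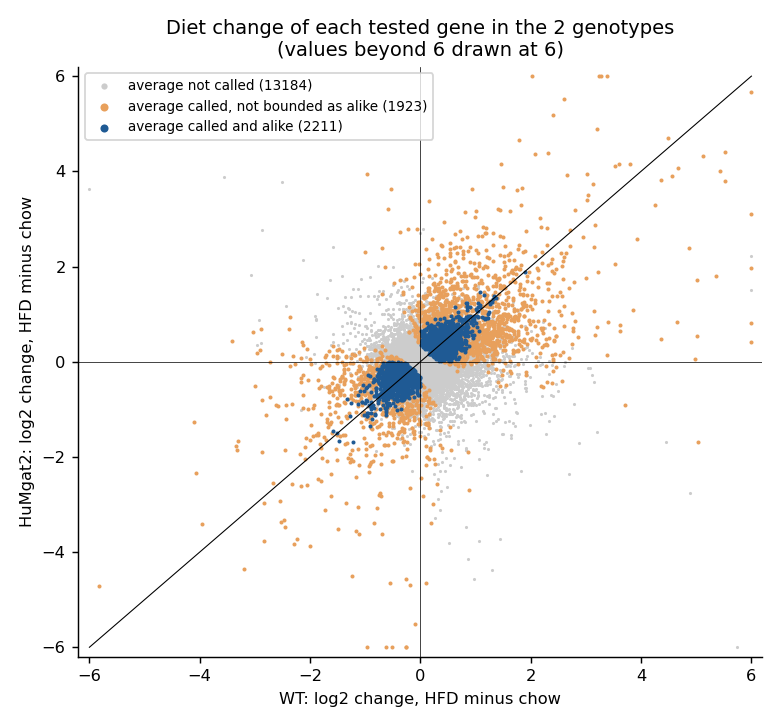
Each point is 1 of 17318 tested genes, with its log2 diet change (HFD minus chow) in WT on the horizontal axis and in HuMgat2 on the vertical axis; the diagonal marks equal change, and values beyond 6 are drawn at 6. The 2211 alike genes lie near the diagonal at small changes, and genes called in the average but not bounded as alike spread away from it. Nearness to the diagonal is part of the rule for alike.

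Matrix genes gave the largest share of members called among the lists of genes by function. Of 25 tested, 23 rose and 0 fell, against 13.3% of all tested genes higher, and 10 of the 23 were alike. Their median log2 change was 0.93 against 0.01 over all tested genes, with 0.76 in WT and 0.95 in HuMgat2. The count was 22 or 23 with any one library left out. Only Fn1 (fibronectin) and Mmp14 (a membrane-bound matrix protease) were not called. The shares to set beside the counts of every list below are those of all tested genes, 13.3% higher and 10.5% lower. For alike members the shares are 5.91% higher and 6.86% lower.

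Col3a1 (chromosome 1, 45350698 to 45388866 in GRCm39), a fibrillar collagen, had the largest change of all alike genes. It ranged from 14.3 to 29.2 CPM on chow (median 17.8) and from 31.2 to 89 CPM on HFD (median 73.7). Every HFD library lay above every chow library. The rise was 3.69-fold (log2 1.88 ± 0.16 SE, edgeR adjusted p = 1.27e-06), with log2 1.89 in WT and 1.88 in HuMgat2. The 95% interval of the genotype difference ran from -0.66 to 0.65.

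The collagen IV chains of basement membranes moved together. Col4a2 rose from 16.5 to 27.8 CPM on chow (median 21.3) to 28.5 to 53.2 CPM on HFD (median 42.9), with no overlap (1.99-fold, log2 0.99 ± 0.10 SE, edgeR adjusted p = 5.89e-06). Its partner Col4a1, named after its values were seen, rose from a median of 31.3 CPM (26.3 to 47.5) to 63.5 CPM (34.8 to 71.9), and its ranges overlapped (1.74-fold, edgeR adjusted p = 9.32e-05). The 2 genes lie head to head on chromosome 8, with Col4a1 ending at 11362826 and Col4a2 starting at 11362805 in GRCm39. In RefSeq (GRCm38.p6) their start sites are 21 bases apart and their promoter windows share 78 bases, so the pair is not independent in position. The other alike matrix genes were Col5a1, Col6a3, Fbn1 (fibrillin), Bgn (biglycan), Sparc (a collagen-binding glycoprotein), Timp2 (a protease inhibitor) and Tgfb1 (the cytokine that drives collagen synthesis). The alike members rose by log2 0.38 to 1.88.

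Members with larger or less even changes were called but not bounded as alike. Col1a2, of collagen I, had a median of 6.63 CPM on chow (5.55 to 12) and 27.6 CPM on HFD (9.82 to 35.3), and the highest chow library exceeded the lowest HFD library. It rose 3.62-fold, by log2 1.73 in WT and 1.97 in HuMgat2. Mmp12, a macrophage elastase, rose 13.7-fold from a median of 0.12 CPM (0.0463 to 0.607) to 3.29 CPM (0.684 to 4.88), without overlap. It had 40 counts over the 8 chow libraries.

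**Figure D2:**
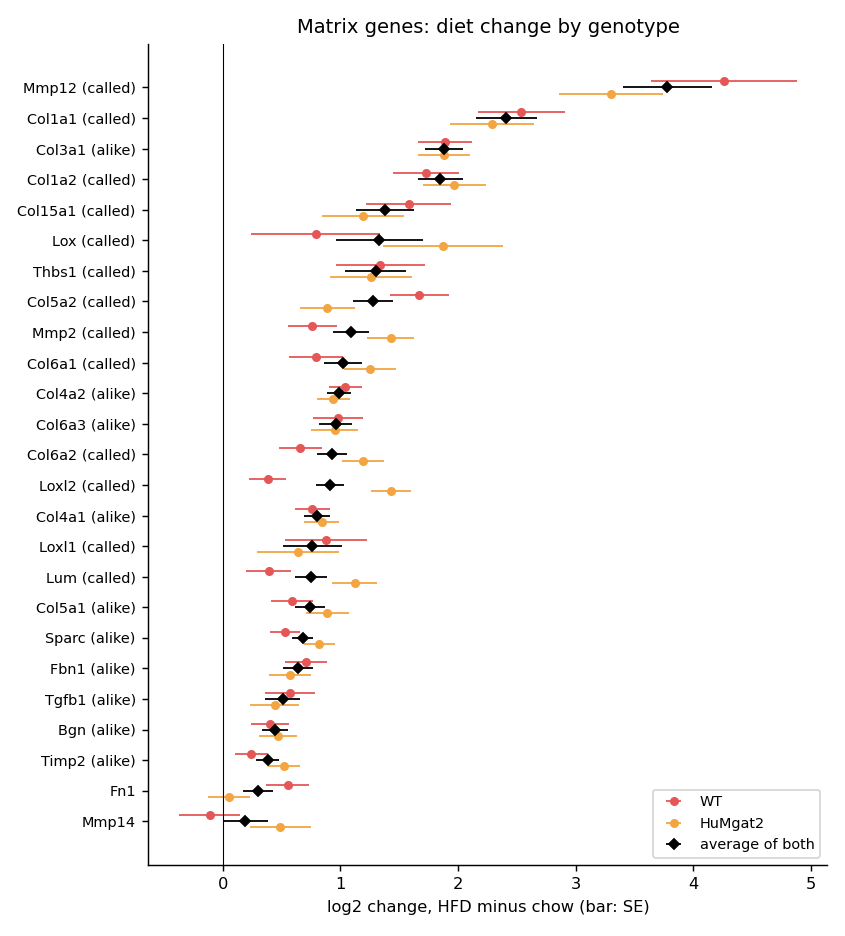
Log2 change (HFD minus chow) of the 25 tested matrix genes in WT, in HuMgat2 and on average, with SE bars; genes are marked as called or alike. All 23 called genes are above 0 in the average, and the 2 genotypes lie close together for the 10 alike genes, as the rule for alike requires.

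Markers of some non-parenchymal cells rose with the matrix genes. In RNA from whole liver, more cells of a type and more RNA per cell cannot be told apart. Of 13 stellate cell markers 5 rose and 0 fell, 3 of them alike: Dcn (decorin), Pdgfrb (a growth factor receptor) and Reln (reelin). Fitted by genotype, 5 of the 13 were called in HuMgat2 and 0 in WT, and the genotype difference was called for 1. The summed level of the 13 was 316 to 436 CPM in WT on chow and 357 to 528 on HFD, and 303 to 496 against 534 to 608 CPM in HuMgat2. Of 17 macrophage markers 10 rose and 0 fell, 1 of them alike. By genotype, 9 were called in WT and 0 in HuMgat2, and 0 genotype differences were called. The macrophage sum was 229 to 396 CPM in WT on chow and 355 to 562 CPM in 3 WT HFD libraries, with 1540 CPM in WT HFD library 4, and 280 to 367 against 366 to 447 CPM in HuMgat2. Of 13 endothelial markers 2 rose, 4 without HuMgat2 chow library 16, and 0 fell, 1 without WT chow library 5 or 6 or HuMgat2 chow library 14. Of 6 cholangiocyte markers 1 fell, 2 without WT HFD library 4 or HuMgat2 chow library 13. With all libraries, the endothelial and cholangiocyte counts were near or below the shares of all tested genes (13.3% higher, 10.5% lower). For the averaged effect, none of 6 lymphocyte and 6 erythroid markers passed the edgeR, DESeq2 or limma voom test. None had an unadjusted p under 0.05 for it in edgeR. In WT alone, 2 lymphocyte markers were called higher, and the genotype difference was called for 1. The 1 tested neutrophil marker was called higher in WT alone, and it passed in the average without WT HFD library 1, 2 or 3. The 1 tested pancreatic marker fell. No marker of the stellate and macrophage lists was at 0 in all libraries. The hepatocyte sum was lower on HFD, as given above. The part of these cells in the matrix result was not tested.

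Markers of lipid-associated macrophages rose in 7 of 10 cases and fell in 0, also without WT HFD library 4. Spp1 (osteopontin) was alike, with 13.6 to 20.6 CPM on chow and 18 to 59.9 CPM on HFD (1.86-fold, edgeR adjusted p = 0.00246). Gpnmb, a lysosomal glycoprotein, had medians of 0.1 and 2.46 CPM, and every HFD library exceeded every chow library. Its highest value, 16.2 CPM, was in WT HFD library 4, and its log2 change of 4.96 was 3.92 without that library. Trem2, a lipid receptor of these cells, rose 5.2-fold between medians of 0.178 and 0.957 CPM.

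The glycerolipid list, mostly of genes that build triglyceride and phospholipid, had 11 of 16 tested genes higher and 0 lower, with 5 alike. It also holds Mgll and Lipe, which release fatty acids and were among the 11. Agpat2 (chromosome 2, 26483069 to 26494429), which adds the second fatty acid to the glycerol backbone, had one of the narrowest ranges. It stood at 77.3 to 91.2 CPM on chow (median 84.7) and 97.4 to 145 CPM on HFD (median 121). No HFD library fell within the chow range. The rise was 1.43-fold (log2 0.51 ± 0.06 SE, edgeR adjusted p = 4.1e-05), with a genotype difference between -0.19 and 0.35. Agpat1, Agpat3, the acyltransferase Gpat2 and the phosphatidate phosphatase Lpin3 were the other alike members, and the 5 rose by log2 0.36 to 0.55. The Gpat2 call was lost without WT chow library 7 or 8, WT HFD library 2, library 16 of HuMgat2 chow or library 12 of HuMgat2 HFD. Genes of this list beyond the 4 with the smallest p-values were named after their values were seen.

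Other genes of this list rose by amounts that differed more between libraries. Gpat3, which starts the pathway, went from a median of 2.96 CPM (1.06 to 4.9) to 10 CPM (4.34 to 14.2), a 2.86-fold rise. Mgll, which releases the last fatty acid from monoacylglycerol, went from 98.2 CPM (81.3 to 127) to 210 CPM (95.2 to 256). Mogat1, a relative of Mogat2, rose 5.98-fold from a median of 0.236 to 2.05 CPM. On HFD it had 0 to 27 counts per library in WT and 74 to 123 in HuMgat2. The final enzymes of triglyceride synthesis, Dgat1 and Dgat2, were not called, with log2 changes of -0.08 ± 0.12 SE and -0.04 ± 0.09 SE.

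Fatty acid synthesis genes rose in 14 of 18 cases and fell in 0, but 2 were alike: Acacb and Fads1. One fell without WT chow library 7, WT HFD library 2 or 3, library 14 or 16 of HuMgat2 chow, or library 11 of HuMgat2 HFD. The median log2 change of the 18 was 1.04, with 0.83 in WT and 1.21 in HuMgat2. Elovl6, an elongase of palmitate, had 72.6 to 116 CPM on chow (median 81.9) and 96 to 597 CPM on HFD (median 269). Its log2 change was 1.05 in WT and 2.29 in HuMgat2, and the difference was not called (adjusted p = 0.155). Fads2, a desaturase of polyunsaturated fatty acids, rose by 1.41 and 1.21 in the 2 genotypes, from medians of 434 to 1220 CPM. Pklr, the liver pyruvate kinase, and Acaca, which makes malonyl-CoA, rose 2.79-fold and 2.08-fold.

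Lipid droplet and uptake genes rose in 15 of 21 cases and fell in 0, with 2 alike, Cideb and Pnpla2, at log2 0.28 and 0.25. Cidec, which fuses droplets, rose 10.2-fold from a median of 2.64 CPM (1.1 to 4.58) to 28.7 CPM (1.35 to 54.5), with its lowest HFD value in WT HFD library 4. Lpl, a lipase of circulating triglyceride, rose 2.17-fold without overlap, from 7.86 to 18.1 CPM on chow to 19 to 54.9 CPM on HFD. Cidea had 11 counts over the 8 chow libraries and 1631 over the 8 HFD libraries. On HFD it had 0 to 61 counts per library in WT and 110 to 557 in HuMgat2. Cd36, a fatty acid receptor, averaged a 2.87-fold rise, but its change differed between genotypes (log2 0.54 in WT and 2.5 in HuMgat2, edgeR adjusted p of the difference = 0.00101). The one tested adipocyte marker, Cfd, was at 0 to 0.416 CPM on chow, at 78.9 to 130 CPM in 3 WT HFD libraries, at 0.159 in WT HFD library 4 and at 3.01 to 6.97 CPM in HuMgat2 on HFD. The adipocyte markers Adipoq, Lep and Retn were too low to test, and the part of adipocytes in these results was not tested.

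Fatty acid oxidation genes rose in 12 of 30 cases and fell in 1. Without WT HFD library 4, 19 rose. By genotype, 4 were called higher and 2 lower in WT, and 14 higher and 0 lower in HuMgat2. The median log2 change was -0.06 in WT and 0.64 in HuMgat2, and the genotype difference was called for 5. Cpt1a (chromosome 19, 3373285 to 3435733), the gatekeeper of mitochondrial fatty acid entry, was alike. It stood at 236 to 376 CPM on chow (median 276) and 383 to 561 CPM on HFD (median 523), without overlap. The rise was 1.82-fold (log2 0.86 ± 0.10 SE, edgeR adjusted p = 1.94e-05), with 0.95 in WT and 0.78 in HuMgat2. Ppara, the nuclear receptor for fatty acids, was alike as well, at log2 0.57. Angptl4, a lipase inhibitor, fell alike by 0.60 on the log2 scale.

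Of 17 lipoprotein genes 2 rose and 1 fell, near or below the shares of all tested genes (13.3% higher, 10.5% lower). Apoa4, an apolipoprotein of triglyceride-rich particles, rose 14.7-fold (log2 3.87 ± 0.39 SE, edgeR adjusted p = 6.01e-06), from 12.8 to 28.5 CPM on chow (median 17.6) to 33.6 to 507 CPM on HFD (median 258). Its lowest HFD value was in WT HFD library 4 and still lay above all chow libraries. Lipc, the hepatic lipase, fell alike, from a median of 76.5 to 54.3 CPM. Apoa5 rose alike by log2 0.30, and this call was lost if WT chow library 6 or 8, library 15 of HuMgat2 chow, or library 9 or 12 of HuMgat2 HFD was left out, which also left 1 lipoprotein gene higher.

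**Figure D3:**
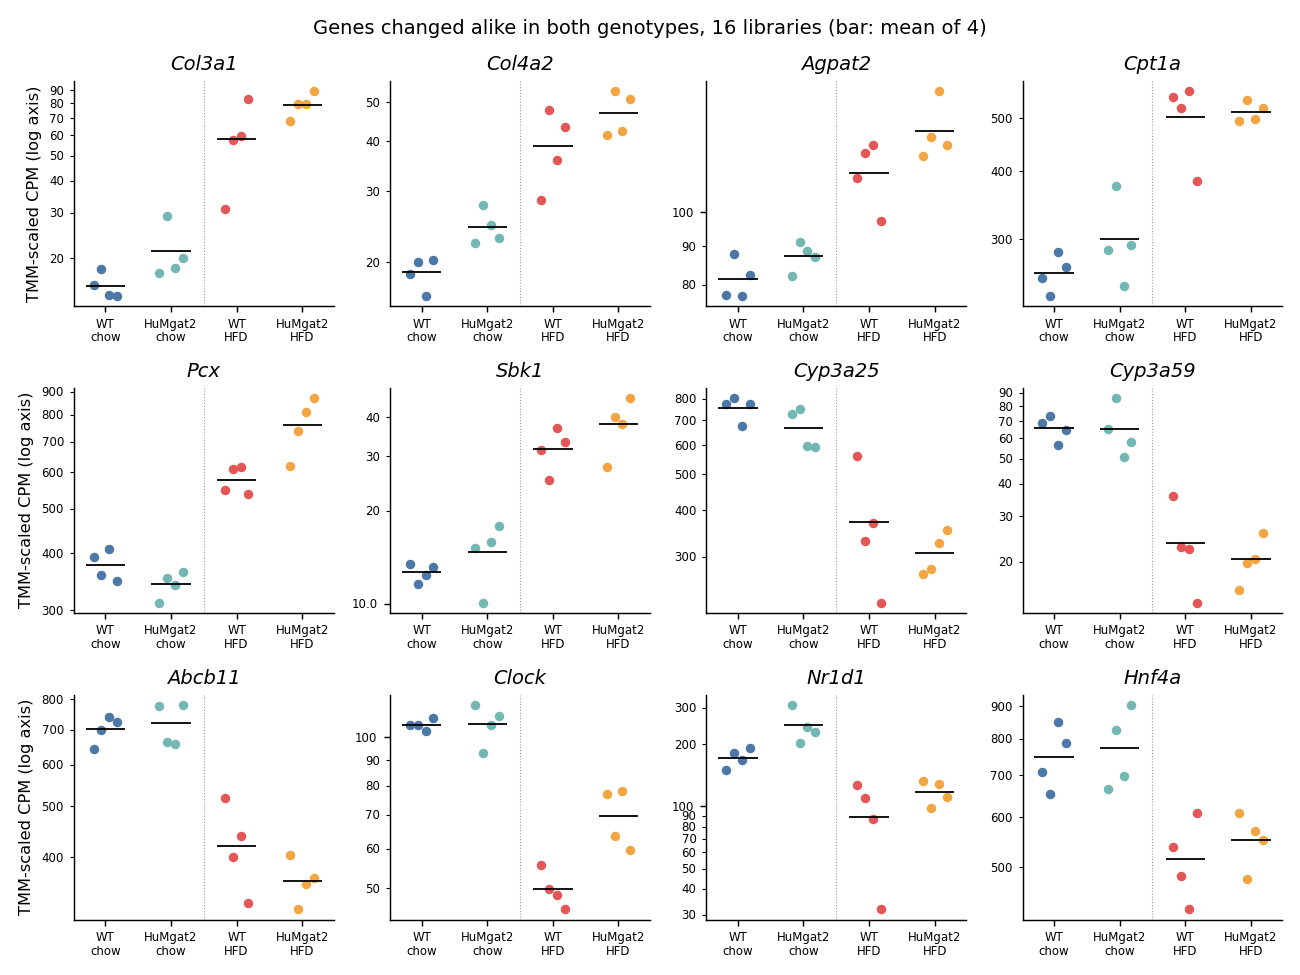
TMM-scaled CPM (log axis) of 12 genes alike in both genotypes in each of the 16 libraries, by group, with the mean of 4 as a bar. In each panel the 8 HFD libraries lie on one side of the 8 chow libraries, and both genotypes move the same way. All 12 belong to the alike genes without overlap, so both traits follow from the choice of genes. Of the 2211 alike genes, 296 had no overlap.

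Bile acid genes were lower in 6 of 19 cases, against 10.5% of all tested genes, and 2 of the 6 were alike. Abcb11 (chromosome 2, 69068626 to 69172960), the pump that exports bile salts into the canaliculus, stood at 644 to 781 CPM on chow (median 711) and 318 to 519 CPM on HFD (median 382). No library of one diet reached the range of the other. The fall was 1.83-fold (log2 -0.87 ± 0.10 SE, edgeR adjusted p = 1.41e-05). Baat, which joins bile acids to taurine, fell alike by 0.20 on the log2 scale. Nr0b2 (SHP, the receptor that represses bile acid synthesis) fell 1.85-fold, from a median of 28.4 to 14.6 CPM. Cyp7a1, whose enzyme sets the pace of bile acid synthesis, rose 2.76-fold from a median of 65.8 CPM (32.9 to 130) to 199 CPM (91.2 to 373). Cyp7a1 and the phospholipid pump Abcb4 were the 2 that rose. The count that rose was 1 in each fit without one library, except 3 without WT HFD library 4 and 2 without HuMgat2 chow library 16, and Cyp7a1 passed the test in all of them.

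In cholesterol synthesis the average combined unlike changes in the 2 genotypes. Of 20 tested genes 6 fell on average and 1 of them, Ebp, was alike. In WT alone 16 of 20 fell, in HuMgat2 alone 3 rose and 1 fell, and 13 of 20 had a genotype difference that passed the test. One gene rose on average without WT HFD library 2. The median log2 change was -1.08 in WT and 0.37 in HuMgat2. Idi1, an isomerase of the isoprenoid steps, ranged from 131 to 223 CPM on chow and from 18.8 to 327 CPM on HFD, and its averaged fall of 2.53-fold combined log2 -2.91 in WT with 0.24 in HuMgat2. All 4 WT HFD libraries were at 18.8 to 28.5 CPM. The HuMgat2 HFD libraries were split, with 327 and 303 CPM in libraries 9 and 10 and 105 and 88.6 CPM in libraries 11 and 12, against 131 to 223 CPM in HuMgat2 on chow. Cyp51, Nsdhl and Tm7sf2, of the same pathway, were likewise higher in libraries 9 and 10 than in 11 and 12, so the HuMgat2 mean does not describe all 4 libraries. Of 15 genes of sterol sensing, uptake and efflux 3 rose and 1 fell, against 13.3% of all tested genes higher and 10.5% lower. Without WT HFD library 4 these counts were 5 and 3. Without WT HFD library 1 or 3 or HuMgat2 HFD library 9, 2 fell. Scap, the escort protein of the sterol sensor, fell alike (log2 -0.34 ± 0.07 SE), and Mylip, which degrades the LDL receptor, rose alike (0.42 ± 0.12 SE).

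Genes of drug metabolism fell in 12 of 23 cases and rose in 2. Cyp2b10, the classic target of the receptor CAR, fell 38.6-fold (log2 -5.27 ± 0.39 SE, edgeR adjusted p = 4.41e-07). It stood at 4.26 to 17.8 CPM on chow (median 9.89) and at 0.0417 to 1.17 CPM on HFD (median 0.155). Cyp2c55 fell 9.91-fold, from 13.2 to 27.4 CPM to 1.03 to 3.37 CPM, and Ces2a, a carboxylesterase, fell 4.66-fold. All 3 genes had no overlap between diets and fell in both genotypes, and none was bounded as alike. Cyp1a2 fell 4.31-fold on average, with log2 -0.84 in WT and -3.38 in HuMgat2 (edgeR adjusted p of the difference = 0.000934).

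The Cyp3a cytochromes, which oxidise drugs and steroids and lie together on chromosome 5, fell as a family. Of 8 tested, 7 fell, and only Cyp3a13 was not called. Cyp3a59 (146016067 to 146050097) had the largest decrease of all alike genes. It was at 50.9 to 85.9 CPM on chow (median 65.2) and 13.9 to 36 CPM on HFD (median 21.3), a 2.97-fold fall (log2 -1.57 ± 0.16 SE, edgeR adjusted p = 7.04e-06). The abundant Cyp3a25 (145914004 to 145946428) went from 593 to 803 CPM (median 738) to 226 to 560 CPM (median 329), also without overlap, and fell by 1.02 in WT and 1.12 in HuMgat2 on the log2 scale. Cyp3a44, Cyp3a16, Cyp3a41a and Cyp3a41b fell 7.71-fold to 8.42-fold from chow medians of 2.5 to 6.23 CPM. These 4 are close relatives, and the counting may have split or shared their reads.

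Glutathione and NRF2 target genes, which defend against oxidants, fell in 11 of 22 cases and rose in 2, with 2 alike. The count that rose was 1 without WT chow library 5 or 7, WT HFD library 4 or HuMgat2 chow library 13 or 15. Gsr, the glutathione reductase, fell alike by 0.37 on the log2 scale without overlap, and Gclm fell alike by 0.28. Across these 2 genes the log2 change was -0.51 to -0.50 in WT but -0.23 to -0.06 in HuMgat2. Gstp1, Gsta2 and Gsta4, glutathione transferases, fell 3.18-fold, 5.91-fold and 2.78-fold without overlap between diets. In WT alone 13 of the 22 were called lower and 0 higher, and in HuMgat2 alone 3 lower and 4 higher. In 10 of the 22 genes the genotype difference passed the test. Ugdh, which makes glucuronic acid, was such a gene, with log2 -1.51 in WT and 0.25 in HuMgat2. Of 12 female-biased liver genes 4 fell, all of them the Cyp3a genes above, and 1 rose. The count that rose was 2 without WT chow library 8, WT HFD library 2 or library 12 of HuMgat2 HFD, and reached 3 when library 14 of HuMgat2 chow was left out. With all libraries, the gene that rose was Fmo2, a flavin monooxygenase. It rose alike 2.2-fold without overlap, from 5.97 to 11.2 CPM on chow to 16.2 to 26.5 CPM on HFD. Fitted by genotype, 1 female-biased gene was called higher and 5 lower in WT, and 5 higher and 4 lower in HuMgat2. The genotype difference was called for 3 of the 12, and the median log2 change was -2.27 in WT and 0.34 in HuMgat2. Of 16 male-biased genes 10 fell and 0 rose, and none was alike. By genotype, 3 were called lower in WT and 11 in HuMgat2, and the genotype difference was called for 6. The median log2 change was -0.37 in WT and -1.94 in HuMgat2. Elovl3, a fatty acid elongase, fell 4.2-fold without overlap, by 2.09 in WT and 2.05 in HuMgat2 on the log2 scale.

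Clock genes moved in both directions: 6 of 18 rose and 5 fell, with 3 alike and 3 whose genotype difference passed the test. In the clock, CLOCK and its partner BMAL1 (encoded by Arntl) bind E-box sequences and switch on Per, Cry, Nr1d1, Dbp, Tef and Ciart. NR1D1 represses Arntl through an element called RORE. The factors DBP and TEF activate D-box sequences, which NFIL3 represses. Genes that fell were Clock, Arntl, Npas2, Nr1d1 and Nfil3, and genes that rose included Per2, Per3, Ciart, Dbp and Tef. Promoter windows of 300 bases, 250 before and 50 after the start site, were taken from RefSeq (GRCm38.p6) for 27025 genes. They were searched on both strands for the E-box CACGTG (in 8.09% of genes), the D-box TTANGTAA (2.72%) and the RORE (0.459%). Of the called clock genes with a window, 2 of 4 that rose (Ciart and Tef) held an E-box, 1 of 4 (Per3) a D-box, and 1 of 5 that fell (Arntl) a RORE. The stretches below show these matches in capitals, on the strand of the gene. Tef has a second window, with 1 E-box as well. The clock motifs were chosen after the clock genes were seen to move, as were Arntl, Npas2, Nfil3, Dbp, Ciart and Tef as genes to name, and a match describes letters only.
Ciart, chr3:95882247-95882364, minus strand: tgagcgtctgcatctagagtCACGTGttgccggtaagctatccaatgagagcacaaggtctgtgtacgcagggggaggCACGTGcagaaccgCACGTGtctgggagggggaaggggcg
Tef, chr15:81802526-81802571, plus strand: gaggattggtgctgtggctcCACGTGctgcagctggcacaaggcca
Per3, chr4:151044796-151044890, minus strand: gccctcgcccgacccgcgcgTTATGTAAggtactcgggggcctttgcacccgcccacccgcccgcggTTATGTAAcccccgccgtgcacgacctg
Arntl, chr7:113207528-113207556, plus strand, after the start site: ggaaggcagAAAGTAGGTCAgggacggag

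Clock itself (chromosome 5, 76357715 to 76452639 in GRCm39) had little spread. It stood at 93.1 to 116 CPM on chow (median 106) and 45.4 to 78.1 CPM on HFD (median 57.6), without overlap. The fall was 1.8-fold (log2 -0.85 ± 0.07 SE, edgeR adjusted p = 1.25e-06). WT fell by 1.09 and HuMgat2 by 0.61 on the log2 scale, and the interval of the difference, 0.17 to 0.78, was within the limit for alike. Arntl, whose RORE is printed above, fell 2.93-fold, from 5.76 to 11.4 CPM on chow (median 9.16) to 1.09 to 7.61 CPM on HFD (median 2.85). One library, HuMgat2 HFD library 11, reached into the chow range.

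Nr1d1 (REV-ERB alpha), the repressor of Arntl, fell alike, while Arntl was called lower but not bounded as alike. The range of Nr1d1 was 150 to 310 CPM on chow (median 197) and 31.8 to 133 CPM on HFD (median 111), without overlap (2.01-fold, edgeR adjusted p = 0.00148). Its lowest value was in WT HFD library 4. The E-box genes differed in size: Ciart, a repressor of the clock, rose 3.72-fold between medians of 2.16 and 9.64 CPM, and Tef rose alike 1.4-fold between 93.8 and 136 CPM. Dbp rose 2-fold, from 19.9 to 33.8 CPM on chow (median 24.9) to 34.8 to 76.9 CPM on HFD (median 48.5), and all HFD libraries lay above all chow libraries. Per3 rose by log2 1.82 in WT and 0.76 in HuMgat2, a difference that was called (edgeR adjusted p = 0.028).

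**Figure D4:**
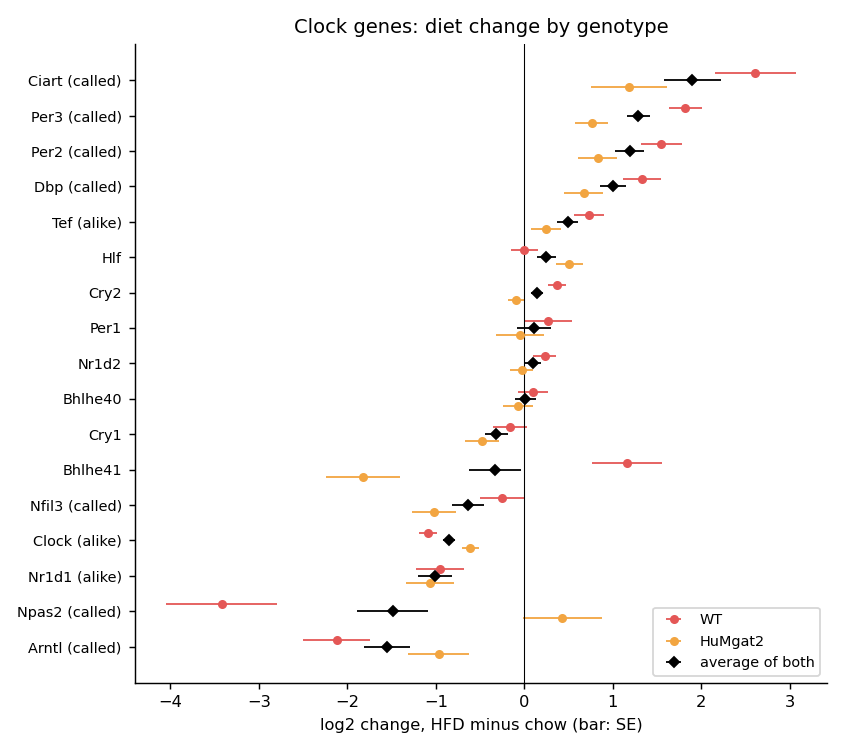
Log2 change (HFD minus chow) of 17 clock genes in WT, in HuMgat2 and on average, with SE bars; genes are marked as called or alike. Clock and Nr1d1 fall and Per3, Per2 and Dbp rise in both genotypes, while Npas2 and Bhlhe41 differ in sign between them.

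The same windows were searched for motifs of lipid and stress regulators in the alike members of the glycerolipid and matrix lists. The sterol element TCACNCCAC (1.44% of genes) and the direct repeat element of PPAR receptors (0.0481%) matched 0 of the 5 glycerolipid and 0 of the 10 matrix genes. The antioxidant element TGACNNNGC, in 14% of genes, matched 2 of the 5 (Gpat2 and Lpin3) and 2 of the 10 (Col4a2 and Timp2).

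Glucose and insulin genes rose in 5 of 18 cases and fell in 5. Of those that rose 3 were alike, and of those that fell 0. The genotype difference was called for 5 of the 18. The median log2 change of the list was -0.01, so the rise of 1 member does not describe it. Pcx (chromosome 19, 4560500 to 4671780), pyruvate carboxylase, which feeds gluconeogenesis and the citrate cycle, rose alike without overlap. It stood at 312 to 408 CPM on chow (median 355) and 537 to 871 CPM on HFD (median 616), a 1.85-fold rise (log2 0.88 ± 0.08 SE, edgeR adjusted p = 3.82e-06). Ppp1r3c, a subunit that directs a phosphatase to glycogen, fell 3.59-fold from a median of 53.8 CPM (48.6 to 100) to 17.7 CPM (9.14 to 31.2). Irs1, the adaptor of the insulin receptor, fell 1.87-fold without overlap, but by 1.39 in WT and 0.42 in HuMgat2 on the log2 scale, a difference that passed the test. The count of 5 that rose was 3 without WT chow library 5 or 6, WT HFD library 1 or HuMgat2 chow library 14, 15 or 16, and without HuMgat2 HFD library 12.

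Urea cycle and amino acid enzymes fell in 12 of 18 cases and rose in 1. Fitted by genotype, 3 were called higher and 2 lower in WT, and 0 higher and 12 lower in HuMgat2. The genotype difference was called for 8, and the median log2 change was -0.08 in WT and -0.72 in HuMgat2. Hal, which starts histidine breakdown, fell 2.01-fold without overlap, from 357 to 600 CPM (median 421) to 174 to 310 CPM (median 224). Alike members were Otc, Asl and Nags of the urea cycle and Tdo2 of tryptophan breakdown, with small changes of -0.50 to -0.23. By genotype their log2 changes were -0.55 to -0.01 in WT and -0.46 to -0.40 in HuMgat2. Cps1, the entry enzyme of the urea cycle, fell 1.72-fold on average, with log2 -0.16 in WT and -1.40 in HuMgat2. Glul, glutamine synthetase, rose alike 1.43-fold, a call lost without WT chow library 5, 6 or 7 or HuMgat2 HFD library 12, which left 0 higher. Without HuMgat2 chow library 14, 2 were higher. Of 9 hepatocyte markers 3 fell. Hnf4a, the transcription factor of hepatocyte identity, was the alike one, at 654 to 905 CPM on chow (median 747) and 429 to 609 CPM on HFD (median 546), without overlap. Albumin was not called (log2 -0.47 ± 0.27 SE).

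Complement and coagulation genes fell in 7 of 24 cases and rose in 0. The count that fell was 14 without WT HFD library 4, and 1 gene rose without WT HFD library 2 or 3. By genotype, 0 were called lower in WT and 8 in HuMgat2, and the genotype difference was called for 6. The median log2 change was 0.11 in WT and -0.47 in HuMgat2. Klkb1, prekallikrein, fell alike 1.43-fold without overlap, from 410 to 468 CPM to 191 to 409 CPM. Serpinc1, antithrombin, fell alike by 0.29 on the log2 scale. Of 14 secreted liver hormones 3 rose and 4 fell, against 13.3% of all tested genes higher and 10.5% lower. The count that fell was 7 without WT HFD library 4. Lect2, of that list, rose alike 1.44-fold, from 33 to 55 CPM (median 37.8) to 54.5 to 68 CPM (median 58.5). Of 15 iron and heme genes 2 rose and 1 fell, 4 without WT HFD library 4, shares near or below those of all tested genes in the fit of all libraries. Alas1, the first enzyme of heme synthesis, rose 2.47-fold from a median of 194 to 517 CPM.

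Cell cycle genes rose in 14 of 19 cases and fell in 0, with 13 rising without WT HFD library 4. One was alike: Mcm3, of the replicative helicase, rose 1.51-fold from a median of 3.04 CPM (1.98 to 3.87) to 4.24 CPM (3.3 to 6.95). Ccna2, cyclin A2, rose 2.14-fold between medians of 0.763 and 1.91 CPM. No genotype difference passed the test in this list, although 2 genes were called in WT alone and 11 in HuMgat2 alone.

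Of 20 inflammation genes 9 rose and 1 fell, or 2 without WT HFD library 4, and none that rose was alike. By genotype, 12 were called higher in WT and 1 in HuMgat2, and the genotype difference was called for 3 of the 20. One library raised the size of the acute phase changes. Lcn2 was at 0.601 to 2.71 CPM on chow and 5.63 to 39.9 CPM in 7 HFD libraries, and at 862 CPM in WT HFD library 4. Its log2 change was 5.58 with that library and 3.74 without it. For Saa2 the 2 values were 5.78 and 2.52, and for Saa1, which shares near-identical sequence, 4.50 and 1.99. All 3 were called both with and without it. Nfkbia, an inhibitor of NF-kappa-B, fell alike by 0.56 on the log2 scale.

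Interferon genes rose in 8 of 20 cases, but this count ran from 3 to 13 when single libraries were left out. It was 13 without WT HFD library 2, 3 without library 11 of HuMgat2 HFD, and 4 or 5 without library 5 or 6 of WT chow, library 13, 14 or 16 of HuMgat2 chow, or library 9 or 10 of HuMgat2 HFD. By genotype, 6 interferon genes were called higher and 0 lower in WT, and 2 higher and 2 lower in HuMgat2. The genotype difference was called for 1 of them. Oasl1 and Usp18 were alike, at log2 0.52 and 0.50, and Usp18 lost its call without WT chow library 6 or HuMgat2 HFD library 11. Antigen presentation genes rose in 4 of 13 cases, with 9 without WT HFD library 3. The count was 2 without WT chow library 5, 6 or 8, library 13, 14 or 15 of HuMgat2 chow, or any single library of HuMgat2 HFD. Fitted by genotype, 5 antigen presentation genes were called higher in WT and 0 in HuMgat2, and 1 genotype difference was called. Of 20 unfolded protein and stress genes 1 rose and 3 fell, with 11 falling without HuMgat2 chow library 14, 5 without HuMgat2 HFD library 9. With all libraries, these counts were near or below the shares of all tested genes (13.3% higher, 10.5% lower). Hyou1, an endoplasmic reticulum chaperone, fell alike by 0.65 on the log2 scale, a call lost without WT chow library 6 or HuMgat2 chow library 16. Immediate early genes fell in 5 of 17 cases, 8 without WT HFD library 4, and rose in 4, with 0 alike. In WT 3 of them were called higher and 1 lower, against 2 higher and 7 lower in HuMgat2. The genotype difference was called for 3. Zfp36, which destabilises cytokine mRNA, fell 2.26-fold without overlap.

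**Figure D5:**
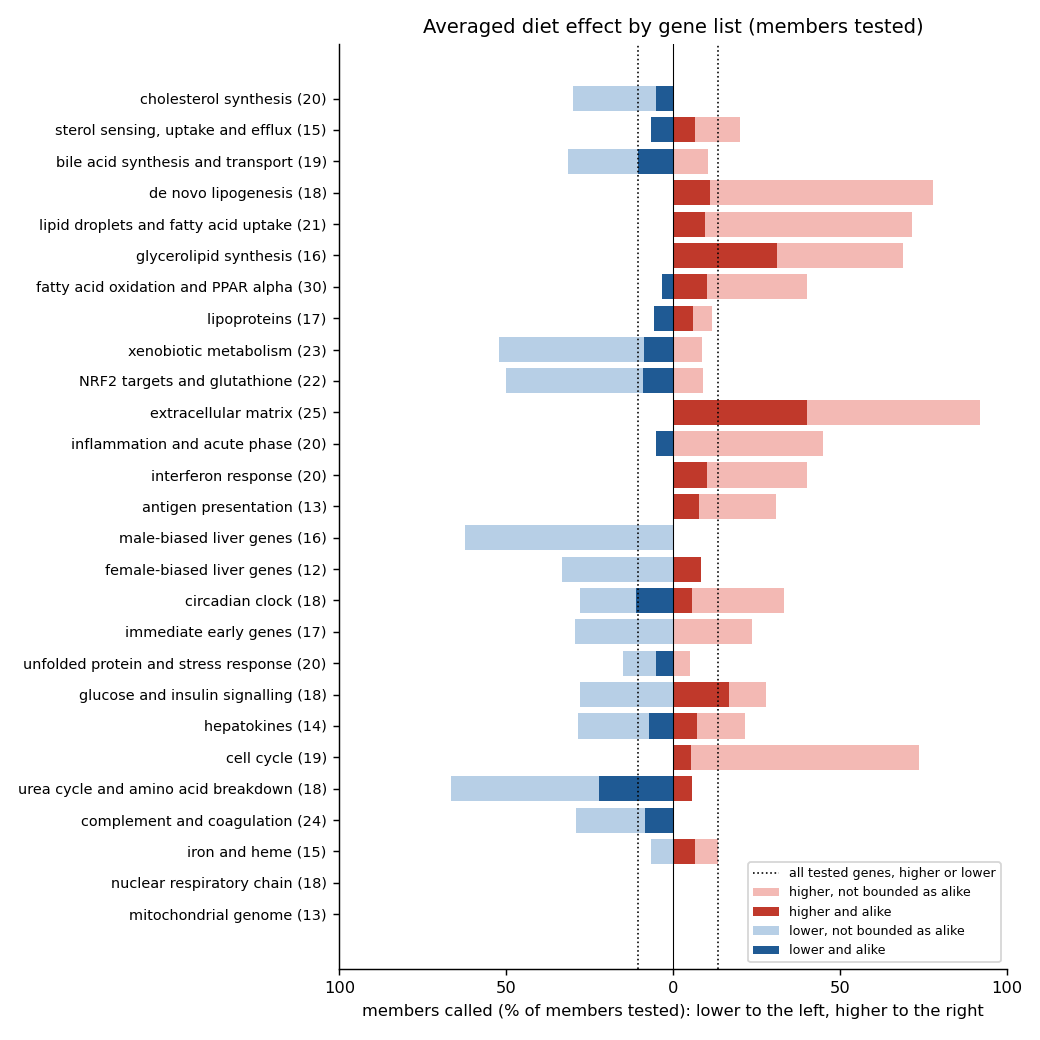
Share of tested members called higher (right) and lower (left) in the averaged diet effect for 27 gene lists, with the number tested in brackets; dark bars are alike members and dotted lines the shares of all tested genes. Matrix genes reach the largest share higher, with 10 of 25 alike, and the 2 respiratory lists have none called.

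Genes of energy production in mitochondria were not called in the average. Of 18 nuclear respiratory chain genes and 13 genes of the mitochondrial genome, edgeR called 0 at adjusted p under 0.05, and 0 had an unadjusted p under 0.05. DESeq2 and limma voom called 0 as well. Without WT HFD library 4, 1 respiratory chain gene was higher. Their median log2 changes were -0.01 and -0.25.

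The alike genes with the largest changes included many outside these lists. Sbk1 (chromosome 7, 125871791 to 125894188), a protein kinase gene, stood at 10.1 to 17.9 CPM on chow (median 13.3) and 25.1 to 46.2 CPM on HFD (median 35.2). It rose 2.54-fold (log2 1.35 ± 0.12 SE, edgeR adjusted p = 2.55e-06), by 1.33 in WT and 1.37 in HuMgat2. Trim7, a ubiquitin ligase gene known for binding glycogenin, rose 2.5-fold from a median of 4.98 to 12.9 CPM. Cpeb1, which controls mRNA polyadenylation, rose 2.42-fold from 2.8 to 6.17 CPM, and Synj2, a phosphoinositide phosphatase, rose 2.39-fold from 4.74 to 11.8 CPM. Ctps, which makes CTP for nucleic acids and phospholipids, rose 2.21-fold from 2.31 to 5.46 CPM. Epha3, an ephrin receptor, rose 2.36-fold at about 1 to 3 CPM. Niban2, Fam102a, Psd4 and Dnph1 completed the 12, at 2.13-fold to 2.44-fold. In all 12 genes, Col3a1 and Fmo2 included, each HFD library was above each chow library, which was part of the rule that selected them.

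The largest alike decreases were of varied function. Ccn1 (CYR61), a matricellular signal protein, fell 2.84-fold from 10.3 to 35 CPM on chow (median 12) to 3.48 to 8.02 CPM on HFD (median 5.24). Med12l, a relative of a Mediator subunit, fell 2.75-fold (log2 -1.46 ± 0.12 SE, edgeR adjusted p = 8.04e-07) from a median of 8.66 to 3.15 CPM. Ocln (occludin), a tight junction protein, fell 2.05-fold from 21.5 to 10.6 CPM. Itih5, a hyaluronan-binding protein, fell 2.19-fold from 23.1 to 10.8 CPM. Bdh2, a dehydrogenase, and Akr1c19, an aldo-keto reductase, fell 2.02-fold and 2.07-fold. Simc1, Tdrkh and AI463229 fell 1.96-fold to 2.08-fold. These and Cyp3a59, Cyp3a25 and Nr1d1 are the 12 decreases named by rule.

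Pooling both genotypes called genes that neither genotype called alone. There were 929 such genes (5.36% of those tested), 529 of them higher, and 647 of the 929 were alike. Osbpl7, an oxysterol-binding protein, rose 1.65-fold between medians of 1.15 and 1.92 CPM, by log2 0.72 in WT (adjusted p = 0.0532) and 0.73 in HuMgat2 (adjusted p = 0.0517). Erbin, a scaffold of receptor tyrosine kinases, fell 1.21-fold from a median of 177 to 143 CPM, and Rtf1, a transcription elongation factor, fell 1.22-fold without overlap, from 23.3 to 31.4 CPM to 19.3 to 22.1 CPM. The kinases Tec and Frk moved oppositely, with Tec falling by 0.35 and Frk rising by 0.54 on the log2 scale. Gtf2h5 rose and Efna3 fell, and Rab7b rose 2.17-fold.

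For some called genes the average did not describe either genotype. The diet effect was called for 2617 genes in WT (15.1%) and 2418 in HuMgat2 (14%). The 2 sets shared 654 genes that moved in the same direction, 25% of the WT calls and 27% of the HuMgat2 calls, and 93 that moved in opposite directions, of which 85 were not called in the average. Leaving out WT chow library 5 lowered the WT count to 1673 and the 93 to 58. The difference was called for 844 genes (4.87%), and for 529, 550 and 551 without WT chow library 5, HuMgat2 chow library 15 and HuMgat2 HFD library 10.

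Slc22a27, an organic anion transporter, fell by 0.96 in WT and rose by log2 3.94 in HuMgat2, so its averaged rise of 2.81-fold described neither genotype. Its 4 HuMgat2 HFD libraries were at 18.1 to 22 CPM and the other 12 at 0.501 to 2.46 CPM. Gpcpd1, which breaks down glycerophosphocholine, showed the reverse: 227 to 294 CPM in WT on HFD, 37.1 to 45.4 CPM in WT on chow and 30.5 to 72.3 CPM in HuMgat2 on either diet. Cdh1 (E-cadherin) was lower on HFD in both genotypes but unevenly, at 48.6 to 70.1 CPM in WT on chow, 20 to 49.9 CPM in WT on HFD, 37 to 52.8 CPM in HuMgat2 on chow and 3.36 to 4.66 CPM in HuMgat2 on HFD. Cyp2c38 rose and Pcp4l1 fell on average, and both were called in opposite directions in the 2 genotypes.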

How the data were processed

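Liver RNA (15 mg of tissue, RIN above 7, per the labels' protocols) was measured in 16 libraries, listed as 64 records with 4 records per library. The deposited values are raw counts per gene name, made by the authors with featureCounts 2.0.1 on GRCm39 and Ensembl 103, per the file headers; STAR 2.7 and DESeq2 1.26.0 are named in the submitters' processing notes. The counting command has no strand option, so reads of overlapping antisense genes cannot be told apart, and no option for multiple alignments, so reads of near-identical genes such as Saa1 and Saa2 may be missing or split. Of 33954 gene names with a count, 17318 passed edgeR's filterByExpr and were fitted with TMM scaling in a 4-group quasi-likelihood model (edgeR 4.0.16, R 4.3.3), with Benjamini-Hochberg adjustment over all of them. The averaged effect gave each genotype equal weight. The SE is the size of the coefficient divided by the root of the F statistic. The scripts were tested on simulated data. Groups came from the labels through the column names of the table, and no pair of libraries agreed within counting noise.

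The genes named by rule were the 12 largest alike increases and 12 largest alike decreases with no overlap between diets and at least 1 CPM, up to 4 called genes per list with the smallest adjusted p, 8 genes called by the average alone, 6 called also as different between genotypes, and Mogat1, Mogat2, Dgat1 and Dgat2. Names starting with Gm or ending in Rik were left out of the ranked parts. Other genes were named after their values were seen. The gene lists and the contrast were chosen with earlier results of these data known. Promoter windows and start sites come from RefSeq (GRCm38.p6), and gene positions from the count table (GRCm39). Alternatives were DESeq2 1.42.0, DESeq2 size factors, limma voom (limma 3.58.1) with sample weights, other filters, models without the interaction or without genotype, 2 other limits for alike, and leaving out each library. At 12.4 to 25.8 M counts per library, 3200 of the tested genes were below 1 CPM, where values rest on few counts. Some members of the lists are not reported by name here.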

Additional observations from a re-analysis of the deposited data

Results flagged for a closer look

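In 34 of 461 groups of 4 libraries examined for the genes named above, 1 library lay far from the other 3, with a gap to the nearest above Dixon's 95% critical value. Chance gives about 1 in 20. WT HFD library 4 gave 11 of the 34. It was above its group in Lcn2 (862 CPM), Saa2 (6930 CPM), Saa1 (7570 CPM), Gpnmb (16.2 CPM), Rab7b (3.65 CPM) and Pcp4l1 (2.14 CPM). It was below its group in Alb (8390 CPM), Mgll (95.2 CPM), Ces2a (34.3 CPM), Gsta4 (6.59 CPM) and Cyp3a41b (0 CPM).

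HuMgat2 chow library 14 was above its group in Itih5 (28.5 CPM), Fads2 (674 CPM) and Col1a2 (12 CPM) and below it in Glul (518 CPM). HuMgat2 chow library 15 was high in Ctps (3.11 CPM) and low in Cyp3a44 (1.88 CPM), and library 13 of that group was high in Cd36 (51.3 CPM). In HuMgat2 on HFD, library 9 was high in Ocln (13.6 CPM) and Cyp2c55 (2.44 CPM) and low in Ccna2 (1.59 CPM). Library 12 was high in Gsta4 (29.8 CPM), Ciart (17.1 CPM) and Glul (1790 CPM), library 10 in Irs1 (49.4 CPM) and library 11 in Osbpl7 (2.72 CPM). In WT on chow, library 5 was high in Ocln (29.9 CPM) and library 7 in Dbp (33.8 CPM). Library 6 of that group was low in Gsta4 (42.5 CPM) and Usp18 (3.33 CPM), and library 8 in Mcm3 (1.98 CPM). In WT on HFD, library 2 was high in Ccn1 (5.13 CPM), library 1 in Tec (16.1 CPM) and library 3 in Gpcpd1 (294 CPM).

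For 14 named genes the diet change differed between genotypes by the edgeR test of the interaction. The log2 change in HuMgat2 exceeded that in WT by 4.9 for Slc22a27, 3.85 for Npas2, 3.3 for Pcp4l1, 3.15 for Idi1, 2.63 for Cyp2c38, 1.95 for Cd36, 1.76 for Ugdh and 0.97 for Irs1. The HuMgat2 minus WT difference was -7.38 for Saa1, -2.97 for Gpcpd1, -2.95 for Cdh1, -2.54 for Cyp1a2, -1.24 for Cps1 and -1.06 for Per3. For Saa1 the WT value includes the 7570 CPM of WT HFD library 4.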

How the results depend on the processing

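The averaged count of 4134 stayed between 3158 (diet alone, without genotype) and 5305 (limma voom) over all settings, and DESeq2 called 4604, of which 4010 were shared. No called gene named here changed direction under any setting run, and Dgat2, which was not called, ranged from -0.08 to 0.01 on the log2 scale when single libraries were left out. Among 174 genes named by rule or after their values were seen, 17 lost the call in the model without an interaction and 21 in the model of diet alone. In the model without an interaction, the genes that fell numbered 2 and not 6 in cholesterol synthesis, 7 and not 11 among NRF2 targets, 6 and not 10 among male-biased genes and 3 and not 7 in complement, and those that rose 6 and not 12 in fatty acid oxidation, 5 and not 9 in inflammation and 4 and not 8 in the interferon list. Limma voom gave 14 lower in complement and 7 among liver hormones, DESeq2 gave 7 lower in the unfolded protein list against 3, and a mean of at least 1 CPM left 9 cell cycle genes higher against 14. With no filter, 8 antigen presentation genes and 1 lymphocyte marker were higher. With limma voom, 1564 genes were alike and higher, 3944 were called in WT, 1391 had a called genotype difference, 1126 were called in both genotypes in the same direction and 153 in opposite directions. With a 1.5-fold limit in place of 2-fold, 408 genes were alike and higher and 719 alike and lower, since the limit is stricter. Leaving out single libraries gave 1673 to 2670 calls in WT, 529 to 1129 called differences and 58 to 130 genes called in opposite directions. The cause of these changes was not tested, apart from the stricter limit. No paired analysis was possible because the groups share no replicate numbers. Depth limits the genes below 1 CPM, and 8 libraries per diet of unstated origin limit all p-values to the spread between libraries.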
